A study of Mus musculus with 6 samples.

Results

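Polycomb proteins are repressors that hold developmental genes silent through cell division. Polycomb repressive complex 2 (PRC2) methylates a lysine in the tail of histone H3 through Ezh2 or its paralogue Ezh1, and needs the partners Eed and Suz12 to do so. Canonical PRC1 reads that mark through a chromobox (Cbx) protein, carries Bmi1 beside a ubiquitin ligase and compacts chromatin. In embryonic fibroblasts the complexes are known for silencing the Ink4/Arf locus, which holds back cell division.

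The set described here was 9 genes of these complexes, Ezh2, Ezh1, Eed, Suz12, Bmi1, Cbx2, Cbx6, Cbx7 and Cbx8, among 18193 genes with a single symbol on the arrays. They were picked by name: every probe set whose platform symbol, old or current, was one of the 9. That gave 20 of the 22626 probe sets on the Affymetrix MOE430A array and 4 of the 22511 on MOE430B. A probe set is a group of short oligonucleotides that together measure 1 transcript. All 9 genes had a probe set on MOE430A, and Cbx6, Cbx7 and Ezh1 had more on MOE430B.

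The study profiled DR4 cells, mouse fibroblasts from day 15 embryos that serve as feeder layer for embryonic stem cells, to serve as the comparison for J1, R1 and V6.5 stem cells, which were not analysed here. DR4 mice are known to carry several drug resistance genes, so that the feeders survive selection. The labels give no genotype, strain, sex or drug treatment, and do not say whether the cells had been arrested. All cells grew in D-MEM with 15% heat-inactivated serum and LIF on 0.1% gelatin. There was 1 condition and 3 replicates, each hybridized to both array types, for 6 samples in all. As the labels write it, the RNA of replicate 1 was from 12x10e6 cells (2.4 ug/ul) and that of replicates 2 and 3 from 3x10e6 cells each (3.0 ug/ul). No label describes the replicates as separate cultures, so the spread that p-values rest on is that of these samples and may be technical.

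Values are MAS5 signals, a linear brightness scaled to a common target on every array, and the number of arrays limits their precision. Probe sets hybridize with different strengths, so the signal of one is not set against that of another and no order of transcripts is given. Each probe set was read against its own array's median, called the floor below, which lay at 683 to 732 on MOE430A and 846 to 913 on MOE430B. A signal above it on all 3 arrays was found for 42.5% of MOE430A and 37.4% of MOE430B probe sets. A bacterial tryptophan gene serves as control without a mouse target, and its brightest probe set read 614, 757 and 786 in replicates 1 to 3 on MOE430A and 1989, 2348 and 2229 on MOE430B. No source says whether this RNA was spiked in, so it is a second reference level and not a measure of background. Levels of the 2 array types cannot be compared: on the 100 mouse probe sets that both carry, MOE430B was 3.87-fold brighter at the median. All 10 fibroblast markers were above the floor, and of 10 stem cell markers 2 were, Fgf4 and Esrrb, each by a single probe set, while Pou5f1, Nanog and Sox2 were below it on every array. Of the markers of macrophages, endothelium and epithelium, 3 of 7, 2 of 5 and 2 of 5 were above it. Over all genes the share was 54.8%, counting any probe set on either type. The epithelial Epcam passed on MOE430B alone (1447899_x_at; 17127, 36210 and 43842), while its MOE430A probe set had 37.0, 80.5 and 68.8.

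By genes, 7 of the 9 subunits had a MOE430A probe set above the floor on all 3 arrays, against 50.1% of all genes on that array. The exceptions were Cbx7 and Cbx8. In RNA of a whole culture, fewer cells that make a transcript and less of it per cell cannot be told apart. On MOE430B it was 1 of 3, Cbx6, against 51.0% of genes. Of the members' probe sets, 8 of 20 passed on MOE430A and 1 of 4 on MOE430B, against the 42.5% and 37.4% of all probe sets. With the tryptophan control as the floor, Ezh1 and Ezh2 dropped out on MOE430A and 5 genes were left. With at least 2 of 3 arrays above the median there were 8, Cbx8 included. All 9 were above a fixed signal of 200, which 68.0% of MOE430A probe sets passed.

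**Figure D1:**
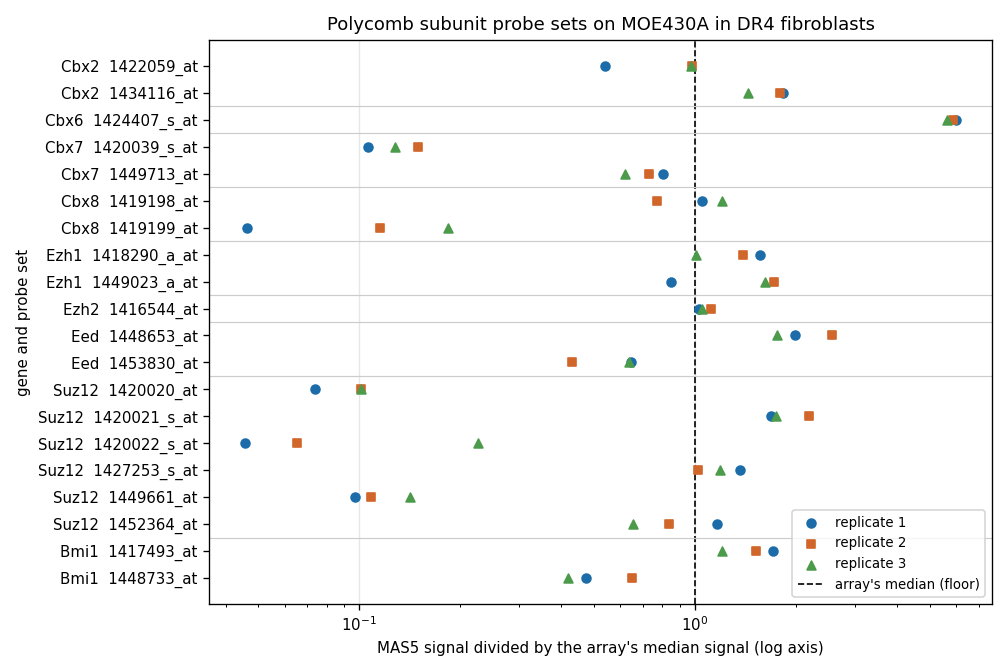
Signal of each of the 20 MOE430A probe sets of the Polycomb subunits, divided by the median of its own array (log axis), with 1 point per replicate; the dashed line is the floor. Cbx6 lies farthest to the right with its 3 points together, Ezh2 sits on the line, and probe sets of Suz12 lie on both sides of it.

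The catalytic subunits of PRC2 came first. Ezh2, the main methyltransferase of dividing cells, had 1 probe set, with signals of 707, 762 and 768 in replicates 1, 2 and 3 (746 ± 33.6, SD, n = 3). All 3 arrays were above the floor by a small margin. Replicates 1 and 2 were also above the tryptophan control of their array, and replicate 3 was under it. The spread was low, with a coefficient of variation of 4.50%, and 97.6% of MOE430A probe sets had as large a ratio of highest to lowest array or larger.

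Ezh1, the paralogue that is also made in resting cells, had 2 probe sets on MOE430A, and they disagreed. The first (1418290_a_at) had 1070, 947 and 737, all above the floor and highest in replicate 1. The second (1449023_a_at) had 583, 1175 and 1185, lowest in replicate 1, which alone was under the floor. The platform lists the same source transcript for both, and the ending _a_at marks probes shared by transcripts of 1 gene. On MOE430B the pair of Ezh1 probe sets, again with 1 source sequence between them, gave 941, 712 and 102 (1429629_at) and 136, 1569 and 244 (1429630_at). Each was above the floor in 1 replicate, and not in the same one. No single direction across replicates can therefore be given for Ezh1.

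Eed binds the methylated histone tail and switches the enzyme on. Its leading probe set, that with the highest mean signal (1448653_at), had 1367, 1747 and 1281 (1465 ± 248, n = 3), above the floor and the tryptophan control on all 3 arrays. The other (1453830_at) had 444, 295 and 466, below the floor throughout. Replicate 2 was the highest array on the one and the lowest on the other.

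Suz12, the scaffold that holds the PRC2 enzyme and Eed together, had 6 probe sets, all on MOE430A. The leading one (1420021_s_at) had 1160.2, 1496 and 1274 (1310.1 ± 171, n = 3), and a second (1427253_s_at) had 938, 699.8 and 869. Both were above the floor on all 3 arrays, but replicate 2 was highest on the first and lowest on the second. One more (1452364_at) had 798, 573 and 479 and was above it in replicate 1 alone. The other 3 (1420020_at, 1420022_s_at and 1449661_at) ranged from 31.4 to 166. Of the 3 listed for 1 shared source sequence (1420020_at, 1420021_s_at and 1420022_s_at), the second was above the floor on all 3 arrays and the others on none. The ending _s_at marks probes that may match more than 1 gene, and it was carried by both Suz12 probe sets above the floor.

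Bmi1, the PRC1 subunit that partners the ubiquitin ligase and is known to restrain the Ink4/Arf locus in fibroblasts, had a leading probe set (1417493_at) with 1175, 1039 and 881 (1032 ± 147, n = 3). All 3 arrays were above the floor and the tryptophan control, and replicate 1 was the highest. The other (1448733_at) had 325, 444 and 306, below the floor on every array. Both are listed for the same source sequence.

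The chromobox subunits, which give canonical PRC1 its grip on the methylated histone, differed in whether they passed the floor. Cbx6 had 4122, 4006 and 4111 on MOE430A (4080 ± 64.2, n = 3; 1424407_s_at) and 13407, 15050 and 20588 on MOE430B (16348 ± 3763, n = 3; 1429290_at). It was above the 75th percentile on all 6 arrays, and no other member was on all 3 of either type. The coefficient of variation was 1.57% on MOE430A, where 99.8% of probe sets ranged as widely or more, and 23.0% on MOE430B. The MOE430A probe set again ends in _s_at, while that on MOE430B does not.

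Cbx2 had 1255, 1226 and 1054 on its leading probe set (1434116_at; 1179 ± 109, n = 3), above the floor on every array. On the other (1422059_at) it had 372, 669 and 711, below the floor on every array and lowest in replicate 1. Cbx8 had 723, 527 and 883 on 1419198_at, above the floor in replicates 1 and 3 and below it in replicate 2. Its second probe set (1419199_at) had 31.7, 78.6 and 134, all below the floor.

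Cbx7, a chromobox protein known for extending the life span of fibroblasts by repressing Ink4/Arf, was below the floor on both MOE430A probe sets. They had 550.3, 498 and 454 (1449713_at) and 73.0, 102 and 93.4 (1420039_s_at), each within 1.40-fold over the 3 arrays. On MOE430B (1433557_at) it had 106, 1915 and 3920.3. Replicate 1 was under the floor, replicate 2 lay above the floor and under the tryptophan control, and replicate 3 lay above both.

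**Figure D2:**
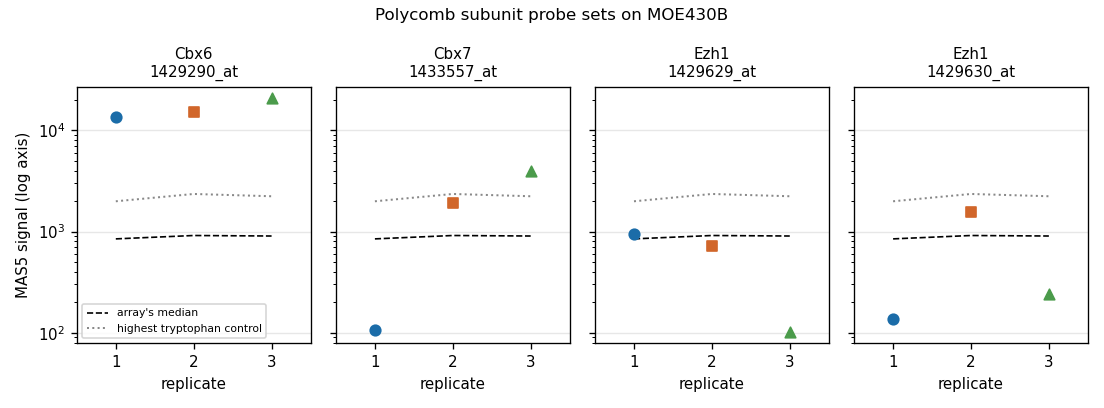
MAS5 signal (log axis) of the 4 MOE430B probe sets of the Polycomb subunits in replicates 1, 2 and 3, with the array's median (dashed) and the highest tryptophan control (dotted). Cbx6 is above both lines throughout, Cbx7 crosses them between 106 and 3920.3, and the Ezh1 probe sets peak in different replicates.

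The start regions of these genes are shown for the members on which the levels turned: Cbx6, the member above the 75th percentile on every array; Cbx7 and Cbx8, the 2 without a probe set that passed on all arrays; and the paralogues Ezh2 and Ezh1. RefSeq promoter windows (GRCm38.p6) were matched for 8 of the 9 members. Each line gives the 150 bases before the transcript start, 5′ to 3′ on the gene's strand, with motif matches in capitals.
Cbx6, chr15:79834334-79834483, minus strand: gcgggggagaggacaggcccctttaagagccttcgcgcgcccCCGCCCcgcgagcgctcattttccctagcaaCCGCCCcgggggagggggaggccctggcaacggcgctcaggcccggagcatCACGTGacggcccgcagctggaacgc
Cbx7, chr15:79932647-79932796, minus strand: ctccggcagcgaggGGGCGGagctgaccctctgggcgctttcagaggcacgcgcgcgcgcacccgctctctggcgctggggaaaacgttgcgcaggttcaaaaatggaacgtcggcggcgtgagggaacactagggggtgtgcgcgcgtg
Cbx8, chr11:119040914-119041063, minus strand: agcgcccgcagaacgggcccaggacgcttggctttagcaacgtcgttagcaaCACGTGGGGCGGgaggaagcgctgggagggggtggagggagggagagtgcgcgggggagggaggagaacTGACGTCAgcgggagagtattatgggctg
Ezh2, chr6:47595031-47595180, minus strand: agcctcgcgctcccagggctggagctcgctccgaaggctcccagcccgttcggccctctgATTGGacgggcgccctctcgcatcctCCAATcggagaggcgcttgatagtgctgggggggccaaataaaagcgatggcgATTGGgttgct
Ezh1, chr11:101226464-101226613, minus strand: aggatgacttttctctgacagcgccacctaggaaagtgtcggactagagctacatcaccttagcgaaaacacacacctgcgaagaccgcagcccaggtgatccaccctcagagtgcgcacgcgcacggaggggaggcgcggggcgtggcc

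The capitals mark, on either strand, the GC box GGGCGG, the CCAAT box CCAAT, the E-box CACGTG and the cyclic AMP response element TGACGTCA. The E2F motifs TTTGGCGC and TTTCGCGC, the TATA box TATAAA, the ETS motif CCGGAAGT, the NRF1 core GCATGCGC and the YY1 motif AAGATGGC were searched as well. In the Cbx8 line the E-box and the GC box lie end to end, and no matches overlap in these lines. Over the whole windows, which run from 250 bases before to 50 after the start, a GC box was found in 5 of 8 members (35.7% of 32851 windows of that length) and a CCAAT box in 5 of 8 (37.4%). Ezh2 had 3 CCAAT boxes, all among the bases shown, and was the only member with TTTGGCGC (0.514% of windows), just past the start. An E-box was found in 3 (7.15%) and TGACGTCA in Cbx8 alone (1.79%). The other 5 motifs had no match in the members, and Ezh1 had none of any motif. GC content was 54.7% to 71.7%, with a median of 66.2% against 52.7% over all windows, and CpG counts had a median of 27.5 against 7. These are matches of letters and do not show binding. In the same assembly Cbx2 and Cbx8 lie next to each other on chromosome 11 with no gene between them, and Cbx6 and Cbx7 lie on chromosome 15 with no protein-coding gene between them.

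The spread between replicates is the error of this control profile. The 8 MOE430A probe sets of the members that passed the floor on every array had a median SD of 0.19 on the log2(signal + 16) scale, against 0.24 for all 9624. They ran from 0.02 for Cbx6 to 0.27 for Ezh1 (1418290_a_at), and none ranged more than 2-fold, as 7.60% of the 9624 did. Without the filter, all 20 had a median SD of 0.25 against 0.36 for all MOE430A probe sets. On MOE430B the 1 that passed, Cbx6, had an SD of 0.32 against a median of 0.28. Without the filter the 4 had a median of 1.71 against 0.49, which rests on signals under the floor on some arrays. Of the 4, 3 ranged more than 2-fold, Cbx7 and both of Ezh1, as 49.0% of all MOE430B probe sets did. A range as wide as that of Cbx7 or wider was found for 0.160% of MOE430B probe sets. For Ezh1 these shares were 5.40% (1429629_at) and 3.31% (1429630_at). These are descriptions, with no test of the difference.

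**Figure D3:**
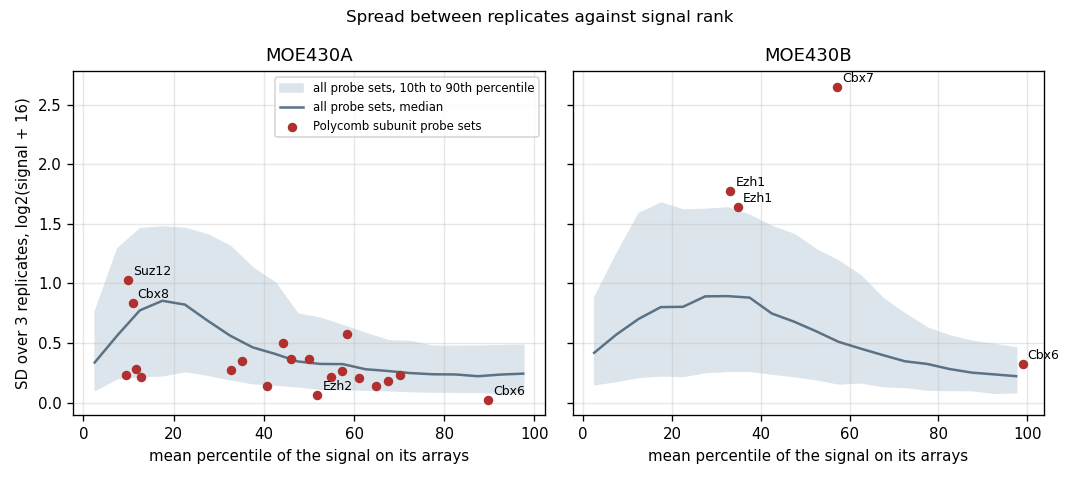
SD over the 3 replicates on the log2(signal + 16) scale against the mean percentile of the signal on its arrays, for Polycomb subunit probe sets (points) and all probe sets (line, median; band, 10th to 90th percentile). On MOE430A the subunits lie mostly at or below the median line, and on MOE430B Cbx7 and both Ezh1 probe sets, each under the floor on at least 1 array, lie above the band.

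The labels record 1 difference among the replicates, the cell number and RNA concentration of replicate 1, and replicate 1 was set against replicates 2 and 3 with limma within each array type. No member was called, and Cbx8 was not tested, as its probe sets were too dim. On MOE430A 0 of 9 tested probe sets of the members passed an adjusted p of 0.05, where 0.704% of 11086 did (78). Their log2 differences ran from -0.996 to 0.35 with a median of 0.02, against -0.01 over all tested, and 5 were higher and 4 lower in replicate 1. The lowest, of Ezh1 (1449023_a_at), rests on a replicate 1 signal under the floor and gives no exact size. On MOE430B 0 of 2 passed, where 0% of 10615 did. At an unadjusted p under the same threshold there was 1 member on each type, Ezh1 on MOE430A and Cbx7 on MOE430B, as for 8.13% and 7.22% of all tested. The fit has 1 residual degree of freedom, replicate 1 is taken to vary as replicates 2 and 3 do, and a miss does not show that the replicates were alike. To it limma adds a spread drawn from all tested probe sets, worth 26.5 degrees of freedom on MOE430A and 3.47 on MOE430B. The standard errors (SE) given below are mostly that shared spread and not the gene's own.

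Ezh1 (1449023_a_at) was the member with the lowest p on MOE430A. Its signal of 583 in replicate 1 stood against 1175 and 1185, and it did not pass (adjusted p = 0.323 in limma). Replicate 1 was under its floor, and the probe set entered the test through replicates 2 and 3, so its size is given only as a bound, at least 1.72-fold lower in replicate 1. The other Ezh1 probe set of the array had a difference of 0.35 ± 0.37 (adjusted p = 0.923), in the opposite direction.

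Cbx7 (1433557_at) did not pass on MOE430B (adjusted p = 0.412 in limma). It entered the test through replicates 2 and 3, and its signal of 106 in replicate 1 was under the floor, so only a bound can be given. The fitted log2 difference was the largest in size of the 10615 tested on MOE430B, and it rests on that signal. Against the floor of replicate 1 the signal there was at least 3.24-fold lower than in replicates 2 and 3. Leaving out replicate 2 gave a bound of 4.63-fold, and leaving out replicate 3 gave 2.26-fold. The Cbx7 probe sets on MOE430A were under the floor on all 3 arrays and could not show whether it differed. The fluidics station on MOE430B differed for replicate 1 only, which means that it and the replicate cannot be told apart. On the 100 probe sets common to both array types, the same contrast moved by at most 1.04 on MOE430A and 0.87 on MOE430B. None of them belongs to a member, so they do not show how the Cbx7 probe set behaved.

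**Figure D4:**
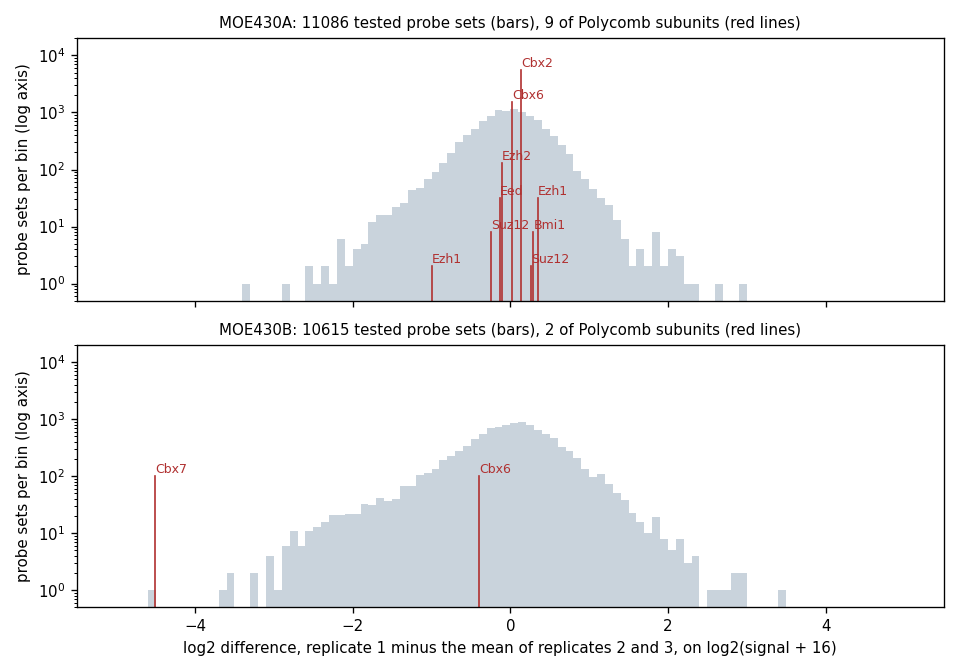
Number of tested probe sets (log axis) by log2 difference of replicate 1 minus the mean of replicates 2 and 3 on the log2(signal + 16) scale, with the Polycomb subunits as red lines, whose heights carry no value. On MOE430A they lie between -0.996 and 0.35. The lowest line of each panel, Ezh1 (1449023_a_at) and Cbx7, is a fitted value that rests on a replicate 1 signal under the floor and measures no exact size.

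Among the tested probe sets, those of the remaining members had smaller differences. In replicate 1 Ezh2 was at -0.11 ± 0.37, Eed at -0.13 ± 0.37, Bmi1 at 0.29 ± 0.37, Cbx2 at 0.14 ± 0.37 and Cbx6 at 0.02 ± 0.37 on MOE430A and -0.39 ± 0.41 on MOE430B, all as log2 difference ± SE, with adjusted p of 0.874 or more in limma. The Suz12 probe sets above the floor went in opposite directions, at -0.25 ± 0.37 and 0.26 ± 0.37. In all 8 members with 2 or more probe sets, at least 1 was higher and at least 1 lower in replicate 1. The same held for 5453 of 9040 genes with 2 or more probe sets (60.3%), and many of these signals were under the floor. Genes with many probe sets, such as Suz12 with 6, show both signs more easily, so this is not read as a trait of the members. Among probe sets above it on all 3 arrays, Cbx6 and Suz12 had 2, of opposite sign in both genes, as in 48.1% of 3489 genes.

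Scan day and RNA integrity can be set beside these values. On MOE430A, replicates 1 and 2 had the same scan day and station, and between them the log2 difference was -0.10 for Ezh2. The Ezh1 probe set 1449023_a_at, under the floor in replicate 1, was at least 1.71-fold lower there than in replicate 2. Gapdh, as a 3′ over 5′ signal ratio, gave 1.27, 1.16 and 0.846 in replicates 1, 2 and 3 on MOE430A and 1.32, 1.24 and 0.802 on MOE430B. Those of beta-actin were 1.05, 1.17 and 1.09, and 1.02, 1.33 and 1.10. The Gapdh ratio was highest in replicate 1 and the beta-actin ratio lowest there on both types, and their part in the differences was not tested.

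Other genes of the pathway, 36 in a list drawn up from general knowledge, were read in the same way. A gene counted if any of its probe sets passed, so genes with many could pass more easily. The 18 measured PRC1 genes, for instance, had 43 probe sets. The share that passed is therefore not read as a trait of the listed genes. Of 34 with a probe set named here, 25 were above the floor on either array type (73.5%, against 54.8% of all 18193 genes), and 0 were called in replicate 1 by limma over 48 tested probe sets. Of these 48, the 3 with the lowest p were 1 probe set each of Pcgf2, Rbbp4 and Phf1, all lower in replicate 1. Those of Pcgf2 (1420645_at) and Rbbp4 (1456260_at) were under the floor there. They entered the test through replicates 2 and 3, so no size is given. Phf1 was above the floor on all 3 arrays, at a log2 difference of -0.81. In the other direction, 8 of 14 tested PRC1 and 8 of 12 tested PRC2 probe sets on MOE430A were higher in replicate 1. Their median log2 differences were 0.11 and 0.25, against -0.01 over all tested there. On MOE430B the medians were 0.24 over 9 tested PRC1 and -0.28 over 5 tested PRC2 probe sets, against 0.03 over all tested.

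In PRC1, 13 of 18 measured genes were above the floor. Pcgf3 and Pcgf5, relatives of Bmi1 in variant PRC1, had 27010, 21446 and 24468, and 8341, 5904 and 3897, on MOE430B. The polyhomeotic genes Phc3 and Phc2, whose proteins join PRC1 complexes to one another, had 6875, 9133 and 8997 on MOE430B and 5412, 4066 and 3947 on MOE430A. Every other probe set of Pcgf3, Pcgf5 and Phc3 was under the floor on all 3 arrays, while both of Phc2 were above it. The ligase gene Rnf2 was above the floor on 2 of its 5 probe sets (1891, 2477 and 1912 on the brighter). Those not above it on all arrays were Ring1, the paralogue of Rnf2 (1263, 659 and 1154), Pcgf2, the closest relative of Bmi1 (519.8, 1152 and 1234 on 1420645_at), Pcgf1, Scml2 and E2f6.

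In PRC2, 7 of 9 were above the floor, with the histone-binding Rbbp7 at 10359, 7768 and 7425 and Rbbp4 at 7224, 10160 and 7421. The accessory subunits Aebp2 and Phf19 had 4599, 3848 and 3504, and 1658, 1928 and 2092. Epop and Ezhip, the latter an inhibitor of Ezh2 mostly made in germ cells, were not above it. Among enzymes that oppose Polycomb, 3 of 5 were: the histone demethylase Kdm6b on MOE430B (7344, 4951 and 8699.7), the deubiquitinase Bap1 (3305, 2832 and 1522) and its cofactor Asxl1 (1365, 1243 and 1817). The demethylase Kdm6a and Asxl2 were not. Rbbp4, Aebp2, Phf19, Bap1 and Asxl1 each also had at least 1 probe set that did not pass on all arrays.

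The Ink4/Arf locus, the classical target of Bmi1 and Cbx7 in fibroblasts, was above the floor at both genes. Cdkn2b, which encodes p15, had 5078, 6157 and 4524 (5253 ± 831, n = 3), well above it in every replicate. Cdkn2a, which encodes p16 and Arf, had 909, 689.9 and 885 (828 ± 120.2, n = 3), close to it, with replicate 2 under the tryptophan control. Neither was called in replicate 1 (log2 differences of -0.06 and 0.21, adjusted p of 0.988 and 0.970 in limma).

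Ezh2 is known to be made mostly in dividing cells, and whether these cells were dividing was not tested. By any of their probe sets, 12 of 15 measured proliferation genes were above the floor, against 54.8% of all genes. Among them Cdk1 had 4395, 3362 and 3723 and Pcna 4466, 4522 and 3634, while Mki67 (523, 827 and 846), Mcm3 and Bub1 were not above it on all arrays. None was called by limma in replicate 1 over 20 tested probe sets, with 1 at an unadjusted p under 0.05. On MOE430A 9 of 17 tested probe sets of the list were higher in replicate 1, with a median log2 difference of 0.12, and their part in the Ezh2 signal was not tested. Outside Polycomb, the chromobox proteins of the HP1 class bind another histone mark. Of their 3 genes, Cbx1 and Cbx5 were above the floor. One Cbx5 probe set (1450416_at; 588, 1791 and 1681) was lower in replicate 1, by at least 2.53-fold, with a single array on that side. It too was under the floor in replicate 1 and entered the test through the other replicates. The other 2 Cbx5 probe sets tested had log2 differences of -0.02 and -0.08, and 2 more were too dim to test. A Cbx1 probe set (1433718_a_at; 1228, 680 and 432) went the other way, with replicates 2 and 3 under the floor. Of the 7 tested probe sets of the HP1 class, 2 were higher in replicate 1. Under quantile normalization limma called no MOE430A probe set, with a lowest adjusted p of 0.169.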

How the data were processed

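RNA of 3 DR4 fibroblast replicates was measured on Affymetrix MOE430A arrays and again on MOE430B. The authors deposited MAS5 signal intensities on a linear scale, per the submitters' processing notes. For MAS5, version and settings: not given in the sources used here. Leaving out the top and bottom 2%, mean signals were 1478 to 1480 on every array, so each had been scaled to 1 target. Instrument records gave scan day and fluidics station, and their numeric column was not analysed as a measurement. Probe sets were named from the platform annotation in GEO, updated through RefSeq identifiers, and 64 control probe sets per type were left out.

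The floor was the median of mouse probe sets on each array. Replicate 1 was compared with replicates 2 and 3 by limma 3.58.1 (R 4.3.3; lmFit and eBayes) on log2(signal + 16), a scale that understates changes of dim genes, over probe sets with a mean log2 signal above the mean log2 floor. Benjamini-Hochberg adjustment ran over all tested, with a threshold of 0.05. The fit was tested on simulated data. The types were never combined in a fit. A fold with an array under its floor is a bound, with the floor in its place.

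Named are all members with every probe set. Of the other Polycomb genes, named are those not above the floor and up to 4 per group with the highest signal. That pick ran over both array types, whose levels cannot be compared, so it ranks no genes. Rnf2, Phf1, Pcgf2 and Ring1 values and the proliferation, HP1 and marker genes given were chosen after their values were seen. The members and lists were chosen with earlier results of these data known. Alternatives were other floors, pseudocounts of 1 and 64, no filter, quantile normalization, an eBayes trend and leaving out each replicate.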

Additional observations from a re-analysis of the deposited data

How the results depend on the processing

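No member was called by limma with pseudocounts of 1 or 64, no filter, quantile normalization or an eBayes trend; with a replicate left out no residual degrees of freedom remain, so those are values with no test. Members above the floor on MOE430A came to 1 at the 75th percentile and to 9 at a fixed signal of 200. Those on MOE430B came to 2 with at least 2 of 3 arrays, and to between 1 and 2 when a replicate was left out, with 2 without replicate 1. Of the other Polycomb genes 14 were above the 75th percentile. The members' median SD (log2) ran from 0.0945 (without replicate 2) to 0.16 on MOE430A when a replicate was left out, and on MOE430B from 0.12 (without replicate 3) to 0.52 (without replicate 1); with no filter it was 1.71 on MOE430B. The Eed difference (1448653_at) was -0.13, and ran from -0.35 without replicate 3 to 0.093 without replicate 2. The cause was not tested. The other 85 values of single probe sets kept their direction and side of the threshold where tested, though their sizes moved. Over all MOE430A probe sets limma called 78, but 0 with no filter, 0 with quantile normalization and 167 with an eBayes trend; on MOE430B it called 0 throughout. No paired analysis was possible because the groups that share replicate numbers are the array types, which hold different probe sets and were not compared. Signals near or under the floor limit what can be said of Ezh2, Ezh1, Cbx7 and Cbx8.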
